A study of Mus musculus with 14 samples.

Results

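The 9 genes described here, Zfp551, Zfp606, Zscan18, Zfp329, Zfp110, Zfp128, Zscan22, Zfp324 and Zfp446, are the Zfp and Zscan genes that stand in a run on mouse chromosome 7 before Zbtb45 and Trim28. They were taken by name and by their position in the gene order, with earlier results of these data known. No rule on their measured values was used. They are 9 of the 472 genes in the count tables. The data come from 14 clonal lines of F1 hybrid (129 by Castaneus, CAST) female mouse embryonic stem cells, whose polyadenylated RNA was sequenced after probes had enriched it for a panel of genes. Sequence differences between the strains assign a read to the 129 or the CAST copy of a gene, so that a clone deleted for an enhancer on 1 chromosome holds a modified and an unmodified copy in the same nucleus. The question of the design is whether a change is limited to the modified chromosome or is shared by both.

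The enhancer Chen2008-1 was deleted in 8 clones; it is taken here as the enhancer of this run because its deletion lowered Zbtb45 and Trim28 on the modified chromosome, and its position was not used. In 6 of them (B8, D3, E3, E7, G3 and H7, genotype Het +/-) the deletion was on the CAST chromosome, and in 2 (D10 and D2, Het -/+) it was on the 129 chromosome. The other 6 clones carry a deletion of the enhancer Chen2008-25 and have an intact Chen2008-1: B4, C4, G2, H2 and H4 are deleted on both chromosomes (KO -/-) and E6 on 129 only (Het -/+). These 6 served as controls here, since no clone was free of both deletions. All clones descend from 1 parental line (F1 2-1) grown without serum in 2i/LIF medium, each clone is 1 sample, and p-values measure only the spread between clones. The order of the signs in the genotypes is not stated and was read as 129 before CAST. With the other order every ratio of the modified over the unmodified copy below would change sign. The ratio of the 129 over the CAST copy would not. The enhancer, the clone set and a number in the column headers, of unstated meaning, cannot be told apart in any difference of level between the sets, whereas the within-clone ratio compares both copies in the same cells.

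C2H2 zinc-finger proteins read DNA through tandem zinc fingers, and many carry a KRAB domain that recruits TRIM28, a co-repressor that in turn brings the histone methyltransferase SETDB1 and HP1 proteins to chromatin. Others carry a SCAN domain, which lets them pair with each other. In embryonic stem cells KRAB zinc-finger proteins and TRIM28 are known for silencing retroelements, and their genes often stand side by side in clusters. Zfp551, Zfp606 and Zfp324 encode KRAB zinc-finger proteins, Zscan18 and Zscan22 encode SCAN zinc-finger proteins, and Zfp446 and Zfp110 encode proteins with both domains. The Zfp110 product is also known as a partner of the p75 neurotrophin receptor.

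Gene order was taken from a later RefSeq mouse annotation, matched by symbol or synonym. There the 9 genes stand in the order Zfp551, Zfp606, Zscan18, Zfp329, Zfp110, Zfp128, Zscan22, Zfp324 and Zfp446. The panel genes Slc27a5, Zbtb45, Trim28, Ube2m and Mzf1 follow. Between Zfp606 and Zscan18 that annotation places 5 protein-coding genes that are not in the panel, and no protein-coding gene stands between consecutive members from Zscan18 to Zscan22 or between Zfp324 and Zfp446. In GENCODE annotation, none of the 9 shared exonic bases with another gene. Only the span of Zscan18 overlapped other loci there (2 on its strand and 2 on the opposite strand). Zinc-finger genes resemble each other in sequence, and the placing of reads that match several of them is not stated, so counts of single members are uncertain to that extent.

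The 250 bases before the annotated start are shown for 4 members: Zscan18 and Zfp329, whose levels differed most between the clone sets, Zscan22, whose level did not pass the test, and Zfp324, which is next to Zfp446 and had the largest within-clone difference in size. The sequences are from RefSeq (GRCm38.p6, the C57BL/6J reference and not the 129 or CAST sequence), which held an entry for 8 of the 9 members. Capitals mark every match, on either strand, to 1 of 7 motifs, and matches run together where they overlap. The motifs are GGGCGG (the GC box that Sp factors bind), CCAAT (the element read by NF-Y) and TATAAA (the TATA box). The others are CCGGAAG (the core element of ETS factors), AAGATGGC (a YY1 site), TGACG (part of the cyclic AMP response element) and the NRF1 palindrome.
Zscan18, chr7:12803639-12803888, minus strand: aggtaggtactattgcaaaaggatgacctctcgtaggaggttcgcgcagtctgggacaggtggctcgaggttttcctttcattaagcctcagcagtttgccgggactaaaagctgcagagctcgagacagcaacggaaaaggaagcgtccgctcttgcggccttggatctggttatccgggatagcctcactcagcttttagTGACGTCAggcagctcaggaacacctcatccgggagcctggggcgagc
Zfp329, chr7:12818861-12819110, minus strand: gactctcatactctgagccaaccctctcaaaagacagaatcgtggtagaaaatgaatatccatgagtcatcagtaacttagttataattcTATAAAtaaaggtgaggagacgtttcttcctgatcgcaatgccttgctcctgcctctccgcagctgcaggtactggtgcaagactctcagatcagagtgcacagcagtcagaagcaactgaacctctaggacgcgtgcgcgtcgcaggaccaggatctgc
Zscan22, chr7:12897559-12897808, plus strand: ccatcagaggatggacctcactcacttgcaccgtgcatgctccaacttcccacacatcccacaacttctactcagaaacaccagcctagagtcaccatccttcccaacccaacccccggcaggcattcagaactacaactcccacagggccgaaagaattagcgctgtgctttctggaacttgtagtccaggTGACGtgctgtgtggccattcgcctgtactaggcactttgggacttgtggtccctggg
Zfp324, chr7:12965588-12965837, plus strand: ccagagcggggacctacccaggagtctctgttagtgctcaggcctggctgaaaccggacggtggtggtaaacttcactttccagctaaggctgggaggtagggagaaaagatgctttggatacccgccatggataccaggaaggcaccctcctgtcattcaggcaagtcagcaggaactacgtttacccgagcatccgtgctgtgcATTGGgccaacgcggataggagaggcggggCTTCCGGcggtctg
Zscan18 held 2 matches to TGACG that overlap on opposite strands, and Zscan22 held 1. Zfp329 held a TATAAA and no other match, while Zfp324 held a CCAAT and a CCGGAAG match. Over the 8 members, TGACG was found in 3, against 17.8% of the 32851 promoters in the same table, CCAAT in 4 (33.8%), CCGGAAG in 3 (6.91%), GGGCGG in 2 (32.7%) and TATAAA in 1 (12.4%). The NRF1 palindrome (0.782% of all) and the YY1 site (1.56%) matched 0 of the 8. The members' stretches held 6 to 14 CpG dinucleotides (median 12.5), where all promoters had a median of 6. These matches describe letters in the reference sequence and say nothing of binding.

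The clones held 135881 to 1331965 allelic reads, of which 379 to 4915 (0.279 to 0.516%) fell in the 9 genes. D10 was the shallowest clone and is 1 of the 2 clones deleted on 129, so values for that direction rest on few reads. Even numbers made up 79.1 to 88.6% of each clone's low counts (1 to 19), and where both mates of a fragment are counted, intervals on reads are too narrow. All 9 members averaged 10 or more allelic reads a clone, the minimum for testing, as did 448 panel genes in the within-clone test. Of the 12 pluripotency, 8 early differentiation and 7 feeder fibroblast markers looked for, 0 were in the panel, so the cell type was not checked against its markers.

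Within clones, the Chen2008-1 deletion lowered the modified copy of 1 of the 9 zinc-finger genes, Zfp446, the member nearest to Zbtb45 and Trim28. Its RNA from the modified chromosome was 77.7% of that from the unmodified one (95% interval 69.6 to 86.7%). Zfp324, its neighbour on the far side from Trim28, had the lowest ratio, 68.3% (54.2 to 86.0%), and did not pass the threshold of 0.05 on adjusted p. The other 7 estimates ran from 82.5% for Zscan18 to 104% for Zfp551, and none passed.

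The 129 share of Zfp446 reads can be compared over both directions of deletion. In the 6 clones deleted on CAST the share had a lowest value of 43.0%, a median of 44.9% and a highest value of 51.5%. In the 6 control clones it was 35.7%, 38.0% and 44.4% in the same order. In the 2 clones deleted on 129 it was 36.4% in D10 (121 reads, Wilson 95% interval 28.3 to 45.2%) and 33.3% in D2 (1182 reads, 30.7 to 36.1%). Every clone deleted on CAST thus had a higher 129 share than either clone deleted on 129, and 4 of the 6 lay above the highest control, while D10 lay within the range of the controls and D2 below it. The group means were 46.1% ± 3.20 (SD, n = 6) for deletion on CAST, 39.1% ± 3.34 (SD, n = 6) for the controls and 34.8% ± 2.14 (SD, n = 2) for deletion on 129. In edgeR's quasi-likelihood test across all panel genes the log2 ratio of the modified over the unmodified copy was -0.36 (SE 0.08, interval -0.52 to -0.21, Benjamini-Hochberg adjusted p = 0.0115). Lower modified copies were called for 4 of the 448 genes tested, 0.893%, with Zfp446 as the single member among them. With the clones deleted on 129 and the controls alone the estimate was -0.32 and did not pass (edgeR adjusted p = 0.511, where the alternatives ran from 0.00231 to 0.511).

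Both copies of Zfp446 can be read against the controls. On the CAST chromosome the level, in CPM (allelic reads scaled to the TMM-adjusted library size of the clone), was 538 ± 81.2 (SD, n = 6) where CAST was deleted and 669 ± 51.1 (SD, n = 6) in the controls. On the 129 chromosome it was 342 ± 8.64 (SD, n = 2) where 129 was deleted and 430 ± 47.4 (SD, n = 6) in the controls. The unmodified 129 copy, at 456 ± 25.3 (SD, n = 6), and the unmodified CAST copy, at 640 ± 44.2 (SD, n = 2), lay within 1 SD of the control mean. Against the controls the modified CAST copy fell by 0.31 on the log2 scale (SE 0.10, edgeR adjusted p = 0.0118). The modified 129 copy had a similar estimate of -0.34 (SE 0.14) that missed the threshold (edgeR adjusted p = 0.0538). It passed with DESeq2 (-0.39, adjusted p = 0.0318) and in edgeR with upper-quartile factors (-0.48, adjusted p = 0.0182) and halved counts (-0.36, 0.0481). It also passed with homozygous controls (-0.37, 0.0499), the same fit as without E6, and without B8, D3 or E7. Over the alternatives that keep all clones or choose among sets of clones the adjusted p ran from 0.0182 to 0.0639. The unmodified copies differed by 0.08 (129, interval -0.10 to 0.27) and -0.05 (CAST, interval -0.35 to 0.25), and neither passed.

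Zfp324 had the largest within-clone estimate in size, although it did not pass. Its 129 share in the clones deleted on CAST had a lowest value of 65.0%, a median of 71.0% and a highest value of 79.5%. In the controls it was 55.3%, 59.3% and 76.9%, the highest being G2 with 26 reads. In the clones deleted on 129 it was 44.4% in D10 (18 reads, Wilson 95% interval 24.6 to 66.3%) and 57.3% in D2 (157 reads, 49.5 to 64.8%). As for Zfp446, the clones deleted on CAST all lay above those deleted on 129, but both overlapped the controls. This order was seen for 2 of the 9 members (Zfp324 and Zfp446) and 4.45% of the 427 genes with reads in every clone, and the reverse order for 0 members and 3.75% of these genes. The log2 ratio of the modified over the unmodified copy was -0.55 (SE 0.16, interval -0.88 to -0.22, edgeR adjusted p = 0.227). In a fit with the clones deleted on CAST and the controls alone it was -0.67 and passed (edgeR adjusted p = 0.0477), while over all alternatives the adjusted p ran from 0.0477 to 0.987.

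For the remaining members the log2 ratio of the modified over the unmodified copy was -0.28 for Zscan18 (interval -0.57 to 0.01), -0.24 for Zfp329 (-0.70 to 0.22) and -0.20 for Zfp128 (-0.81 to 0.41). It was -0.12 for Zfp606 (-0.61 to 0.37), -0.08 for Zfp110 (-0.22 to 0.06), -0.06 for Zscan22 (-0.34 to 0.22) and 0.05 for Zfp551 (-0.35 to 0.45). Zfp110, with the most reads of the 9, had the narrowest interval, while those of Zfp606, Zscan18, Zfp329 and Zfp128 still hold an effect as large as the estimate for Zfp446. In all, 8 of the 9 estimates were below 0, with a median of -0.20 against 0.00 over all genes tested. At an unadjusted p under 0.05 there were 2 members (Zfp324 and Zfp446) among 27 genes.

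**Figure D1:**
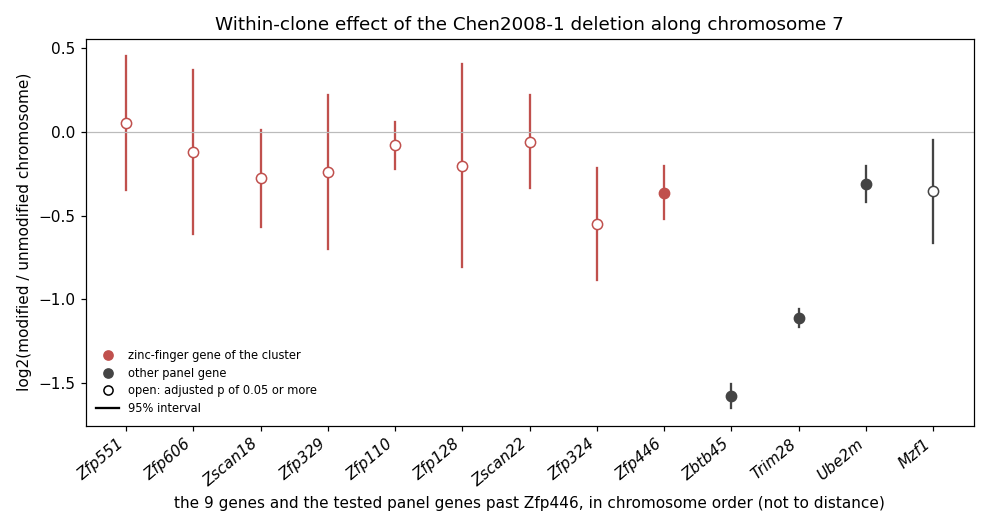
Log2 ratio of the modified over the unmodified chromosome (vertical axis) for the 9 zinc-finger genes and the tested panel genes past Zfp446, in chromosome order but not to distance. Points are edgeR estimates over the 14 clones with 95% intervals, red for the 9 zinc-finger genes and filled where adjusted p is under 0.05; Zfp446 at -0.36 is the only filled red point, beside Zbtb45 at -1.58 and Trim28 at -1.12.

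Past Zfp446 the ratio was -1.58 for Zbtb45 (SE 0.03), -1.12 for Trim28 (SE 0.03), -0.31 for Ube2m (SE 0.05) and -0.36 for Mzf1 (SE 0.15, interval -0.67 to -0.05, edgeR adjusted p = 0.666). Zfp446 thus had an estimate near those of Ube2m and Mzf1, and its interval did not reach that of Trim28 or Zbtb45.

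The effect on the 9 genes was also compared between the 2 directions of deletion. For Zfp446 it was -0.32 (SE 0.17) with the deletion on 129 and -0.39 (SE 0.11) with the deletion on CAST, a difference of 0.07 (interval -0.41 to 0.54). Of all 448 genes, 11.4% differed between directions in edgeR's test and 0 of the 9 members did, with 0 members also at an unadjusted p under 0.05 (85 genes in all) and 0 in DESeq2. The members' differences ran from -0.69 for Zfp128 to 0.54 for Zfp329, with intervals wide enough to hold differences of more than 1 log2 unit for 6 of the 9 (Zfp551, Zfp606, Zfp329, Zfp128, Zscan22 and Zfp324).

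**Figure D2:**
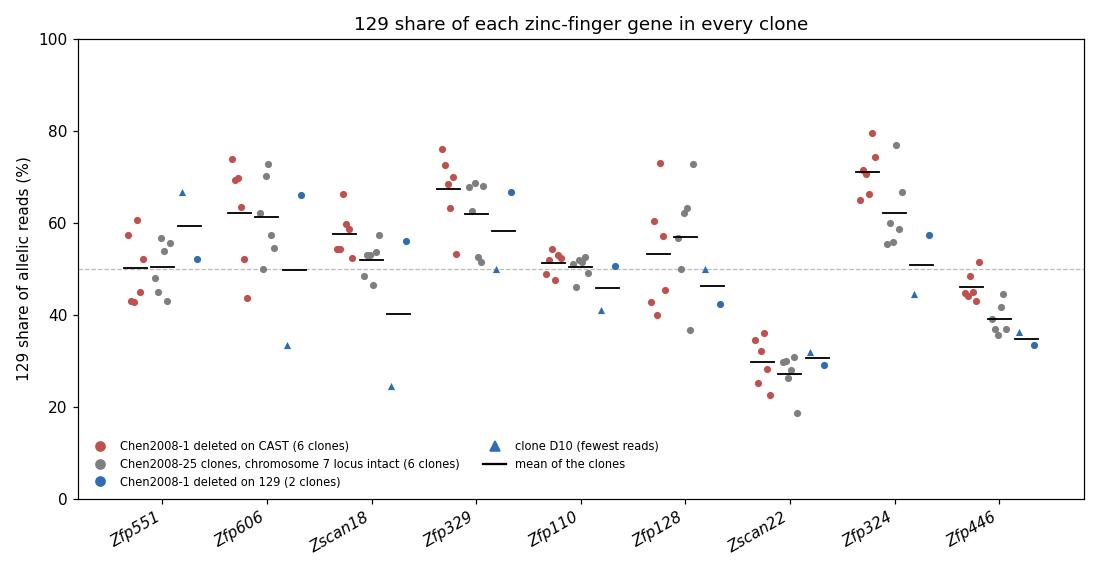
129 share of allelic reads in percent (vertical axis) for each zinc-finger gene, with 1 point per clone and a bar at the mean of each group (red, deletion on CAST; grey, Chen2008-25 controls; blue, deletion on 129, with the shallowest clone D10 as a triangle). Red points lie above blue points without overlap for Zfp324 and Zfp446 alone, an order that 4.45% of the panel genes also had, and Zscan22 lies near 30% in all groups.

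Summed over the 9 genes, the 129 share was 50.1% ± 1.30 (SD, n = 6) in the clones deleted on CAST, 47.8% ± 1.44 (SD, n = 6) in the controls and 41.4% ± 5.19 (SD, n = 2) in the clones deleted on 129. Of the latter, D10 had 37.7% (379 reads, Wilson 95% interval 33.0 to 42.7%) and D2 had 45.1% (3969 reads, 43.5 to 46.6%). All clones deleted on CAST lay above both clones deleted on 129, 5 of those 6 lay above all controls, and both clones deleted on 129 lay below all controls. The pooled share differed by 8.71 points between the directions, and by 5.04 points without D10 and 12.4 points without D2. Without Zfp446 the means were 51.8% ± 1.60 (SD, n = 6) for deletion on CAST and 50.5% ± 1.73 (SD, n = 6) for the controls. The summed share without Zfp446 was 38.4% in D10 (258 reads, Wilson 95% interval 32.7 to 44.4%) and 50.1% in D2 (2787 reads, 48.2 to 51.9%). The difference over the other 8 genes was then 7.56 points with D10 and 1.72 points without it, so most of this pooled difference rests on the shallowest clone. Genes with more reads weigh more in the sum. Zfp110 gave 1622 of the 2787 reads in D2 and 146 of the 258 in D10. The sum of the 8 thus describes Zfp110 more than the members with few reads.

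**Figure D3:**
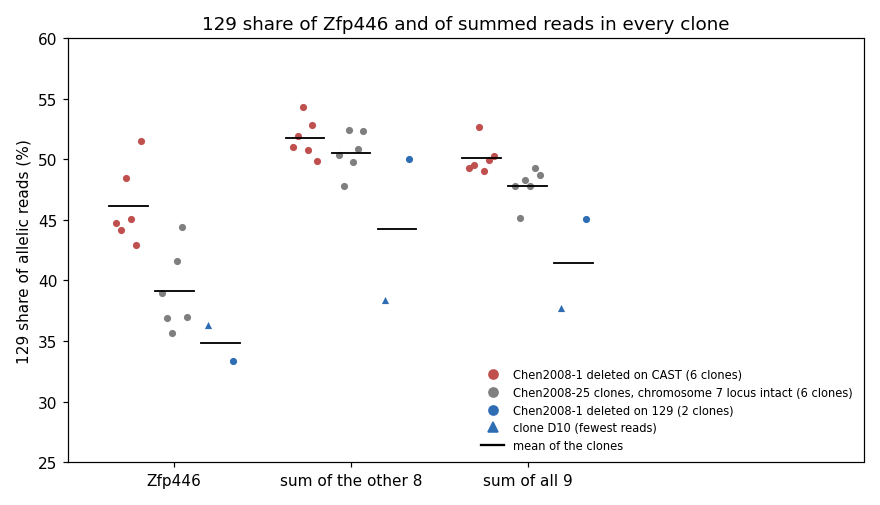
129 share of allelic reads in percent (vertical axis, from 25 to 60%) for Zfp446, for the other 8 zinc-finger genes summed and for all 9 summed, with 1 point per clone and a bar at the mean of each group. The clones deleted on CAST (red) and on 129 (blue) are apart for Zfp446, whereas for the other 8 genes clone D2 (blue circle, 50.1%) lies within the red range and only D10 (triangle, 38.4%) lies below it.

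Levels of 6 of the 9 genes were lower in the Chen2008-1 clones than in the Chen2008-25 clones, and 4 of them were called lower on each copy taken alone. Summed over alleles, the lower genes were Zfp329, Zscan18, Zfp551, Zfp324, Zfp606 and Zfp110, and 0 members were higher. Zfp329 and Zscan18 were at 41.1% (interval 34.0 to 49.8%) and 45.9% (39.0 to 54.1%) of the level in the Chen2008-25 clones. Of all 448 genes tested, 29.5% were called lower and 154 were called higher, so a lower total was common in the panel. In these bulk samples, fewer cells expressing a gene and less RNA per cell cannot be told apart.

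Zfp329 had the largest difference. Its total over both copies in the Chen2008-1 clones had a lowest value of 63.2, a median of 70.5 and a highest value of 89.9 CPM. In the Chen2008-25 clones the values were 157, 170 and 216 CPM. The 2 sets did not overlap, and the clones deleted on CAST (74.8 ± 9.04 CPM, SD, n = 6) and on 129 (66.1 ± 4.07 CPM, SD, n = 2) were alike in this. The log2 difference was -1.28 (SE 0.13, edgeR adjusted p = 1.42e-07).

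Zscan18 followed. Its total ranged from 252 through a median of 322 to 377 CPM in the Chen2008-1 clones and from 597 through 661 to 821 CPM in the Chen2008-25 clones. Every Chen2008-1 clone lay below every Chen2008-25 clone. The log2 difference was -1.12 (SE 0.11, edgeR adjusted p = 1.13e-07).

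Zfp551 ran from 47.4 through a median of 81.2 to 104 CPM against 112, 172 and 202 CPM, which came to -0.98 on the log2 scale (SE 0.16, edgeR adjusted p = 4.55e-05). Zfp110 ran from 1154 through 1387 to 1590 CPM against 1646, 1732 and 1905 CPM, a smaller difference of -0.33 (SE 0.07, edgeR adjusted p = 0.00041). For both genes the sets did not overlap, although the gap for Zfp551 was narrow. Totals without overlap, all Chen2008-1 clones below all Chen2008-25 clones, were seen for 13.6% of the 448 genes and for 4 of the 9 members (Zfp551, Zscan18, Zfp329 and Zfp110). The reverse order was seen for 18.1% of all genes and 0 members.

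Zfp324 ran from 134 through 151 to 210 CPM against 112, 251 and 358 CPM, and Zfp606 from 47.4 through 94.3 to 112 CPM against 94.4, 137 and 193 CPM. In both genes the sets overlapped through G2, the lowest Chen2008-25 clone in each and the shallowest of that set. The log2 differences were -0.71 for Zfp324 (SE 0.19, edgeR adjusted p = 0.00264) and -0.62 for Zfp606 (SE 0.18, edgeR adjusted p = 0.00569). These 2 changes passed with less margin than the 4 above.

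Zfp446, Zscan22 and Zfp128 did not pass. Zfp446 ran from 803 through 1005 to 1089 CPM against 1000, 1109 and 1181 CPM, or -0.15 on the log2 scale (SE 0.07, edgeR adjusted p = 0.0661). Zscan22 differed by -0.14 (interval -0.40 to 0.11) and Zfp128 by 0.01 (interval -0.41 to 0.43). The sets overlapped in all 3. The total of Zfp446, the member with the called within-clone effect, lay near the threshold. It passed as lower with DESeq2 (-0.18, adjusted p = 0.0198) and upper-quartile factors (-0.27, edgeR adjusted p = 0.00139), and in edgeR without D3 (-0.19, adjusted p = 0.0316), G2 (-0.17, 0.0438) or G3 (-0.19, 0.0287), with a range of 0.00139 to 0.149 over all alternatives. The 4 genes whose totals did not overlap had no called within-clone effect.

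**Figure D4:**
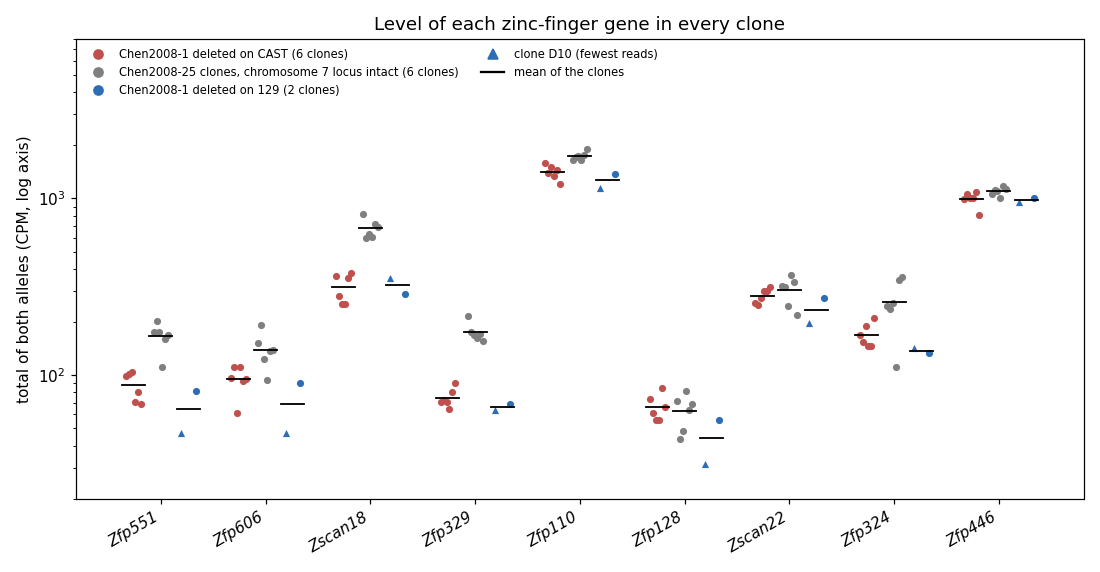
Total of both copies in CPM on a log axis for each zinc-finger gene, with 1 point per clone and a bar at the mean of each group (red, deletion on CAST; grey, Chen2008-25; blue, deletion on 129). CPM is not scaled by gene length, so levels compare clones within a gene and not one gene with another; red and blue points lie below all grey points for Zfp551, Zscan18, Zfp329 and Zfp110.

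The members' median log2 difference in total was -0.62, against 0.01 over all genes tested. The count of 6 lower members held under each clone left out in turn (6 to 7), with library totals without TMM (6) and without the 2 clones deleted on 129 (6), and it was 7 with upper-quartile factors and 7 with DESeq2, the seventh being Zfp446. Upper-quartile factors moved the median of all genes by -0.13 on the log2 scale and the split of calls from 154 higher and 132 lower to 115 higher and 165 lower. The members' median was then -0.75.

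Each copy was set against the same parental copy in the Chen2008-25 clones, and these 4 comparisons share their control clones. On the unmodified 129 copy, 4 of the 9 members were lower (24% of the 412 genes tested for that copy were), and on the unmodified CAST copy 4 (13.9% of 395). On the modified CAST copy 6 were lower (25.3% of 395), and on the modified 129 copy 5 (16.7% of 412). No member was higher on any copy. The 4 members called lower on all copies were Zfp551, Zscan18, Zfp329 and Zfp110. Of the 379 genes tested on all copies, 9.76% were called lower and 16.1% higher on all 4.

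For Zscan18 the log2 difference was -0.99 on the unmodified 129 copy (SE 0.14), -0.93 on the unmodified CAST copy (SE 0.30), -1.29 on the modified CAST copy (SE 0.19) and -1.33 on the modified 129 copy (SE 0.22). For Zfp329 it was -1.14, -1.42, -1.51 and -1.36 in the same order, and for Zfp551 -0.92, -1.32, -0.92 and -1.06. For Zfp110 it was -0.27, -0.34, -0.32 and -0.51. In these 4 genes the unmodified copy was lower, so the difference between clone sets was not limited to the chromosome that carries the deletion.

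Zfp324 passed on both modified copies and on neither unmodified one, and Zfp446 passed on the modified CAST copy alone. Zfp324 was at -1.10 on the modified CAST copy (edgeR adjusted p = 0.00171) and -1.12 on the modified 129 copy (edgeR adjusted p = 0.0103). On its unmodified copies it was at -0.43 (129, SE 0.19, edgeR adjusted p = 0.0715) and -0.73 (CAST, SE 0.42, edgeR adjusted p = 0.185). These calls depended on the setting. The unmodified 129 copy passed with DESeq2 (-0.45, adjusted p = 0.0469), upper-quartile factors (-0.55, edgeR adjusted p = 0.0251) and halved counts (-0.46, edgeR adjusted p = 0.0406), and without G2 (-0.53, edgeR adjusted p = 0.0190) or H7 (-0.50, edgeR adjusted p = 0.0360), with a range of 0.0190 to 0.193 over all alternatives. The unmodified CAST copy passed without G2 (-0.88, edgeR adjusted p = 0.0354, range 0.0354 to 0.651). Zfp324 was thus not shown to be lower on its modified copies alone. The direct test of the modified against the unmodified copy of Zfp324, given above, did not pass. Zfp606 was below 0 on all copies (-0.47, -0.90, -0.71 and -0.78 in the order used for Zscan18) and passed on none. On its modified CAST copy the adjusted p of 0.0525 was close to the threshold. That copy passed with DESeq2 (adjusted p = 0.0462) and in edgeR with library totals (0.0454), upper-quartile factors (0.0266) and halved counts (0.0245). It also passed with homozygous controls (0.0325), the same fit as without E6, and without G2, G3 or H7. Over the alternatives that keep all clones or choose among sets of clones the adjusted p ran from 0.0245 to 0.0624. With upper-quartile factors its unmodified and modified 129 copies passed too (edgeR adjusted p = 0.0227 and 0.0399), and the unmodified one also passed without D2 or D3. Zscan22 and Zfp128 passed on none, also under every alternative.

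The values of the copies in clones deleted on 129 rest on 2 clones, and with either left out the remaining one is assumed to vary like the other groups. Without D10, the calls of Zfp551 and Zfp110 were lost on both copies of these clones, leaving 3 on the modified 129 copy and 2 on the unmodified CAST copy. Without D2, the Zfp606 estimate on the modified 129 copy was -2.48, which rests on the 2 reads of that copy in D10. In the same fit Zfp551 and Zfp324 lost their call on that copy. On the unmodified CAST copy Zscan18 (-0.34), Zfp329 (-1.14) and Zfp110 (-0.40) lost theirs without D2. The Zfp551 estimate on that copy was then -2.48, which rests on its 2 CAST reads in D10. Zfp110 also lost its call on the unmodified CAST copy without C4 (-0.32) or H4 (-0.31).

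**Figure D5:**
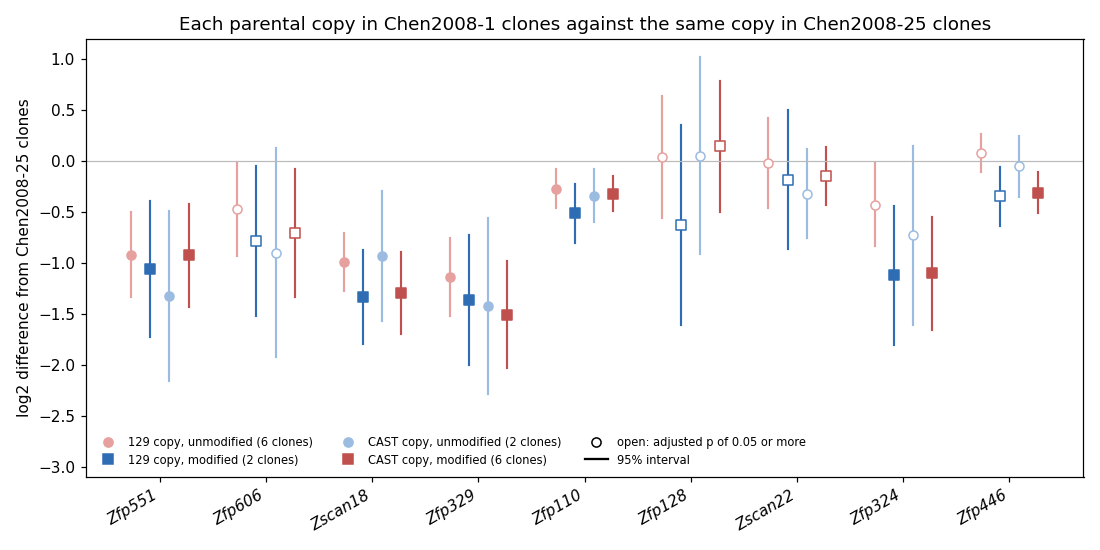
Log2 difference of each parental copy in the Chen2008-1 clones from the same copy in the Chen2008-25 clones (vertical axis), with 95% intervals from edgeR. Circles are unmodified and squares modified copies, filled where adjusted p is under 0.05; for Zfp551, Zscan18, Zfp329 and Zfp110 all 4 copies are filled, and for Zfp446 only the modified CAST copy is.

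The parental copies of several members also differed from each other. In the allele term of the within-clone fit, the log2 ratio of the 129 over the CAST copy with the deletion accounted for, 3 members were higher from 129 (38.2% of the 448 genes tested were) and 2 were lower (31.5% of them). The higher ones were Zfp329 (log2 ratio 0.82, SE 0.15), Zfp606 (0.67, SE 0.17) and Zfp324 (0.66, SE 0.12). The lower ones were Zscan22 (-1.30, SE 0.10, edgeR adjusted p = 2.04e-10) and Zfp446 (-0.62, SE 0.06, edgeR adjusted p = 4.09e-09). In the control clones the 129 share of Zscan22 had a lowest value of 18.6%, a median of 28.9% and a highest value of 30.8%, below an even share in every clone. Zfp551, Zscan18, Zfp110 and Zfp128 did not pass. In the control clones the mean 129 share was near even for both Zfp551 (50.3% ± 5.76, SD, n = 6) and Zfp110 (50.4% ± 2.42, SD, n = 6). Without D10, Zscan18 also passed (0.22, edgeR adjusted p = 0.0296, where its alternatives ran from 0.0296 to 0.933). Zfp324 was thus called higher from 129 and Zfp446, next to it, higher from CAST. Calls in either direction were common over the panel, and what causes them was not tested.

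The panel holds 16 further zinc-finger genes, 14 on chromosomes 1, 10, 11 and 15 and Zbtb45 and Mzf1 on chromosome 7. In total, 10 of these were lower, 0 higher and 6 not called, with a median log2 difference of -0.34. Over all 448 genes tested, 29.5% were called lower and 154 genes were called higher. Among the lower were Zfp354c at -1.10 (SE 0.20), Zfp354a at -0.95 (SE 0.23) and Zfp454 at -0.78 (SE 0.13), all on chromosome 11. On the same chromosome Zfp2 was lower by less (-0.41, SE 0.12) and Zfp879 was not called (-0.15, SE 0.29). The list does not include the 9, whose median was -0.62, and a difference between the lists was not tested. Within clones, 1 of the 16 was lower on the modified chromosome, Zbtb45.

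Of 25 genes listed for the TRIM28 pathway, 2 were in the panel, Trim28 itself and Cbx5 (HP1 alpha). Both were lower in total, Trim28 at -0.41 on the log2 scale (SE 0.12, edgeR adjusted p = 0.00506) and Cbx5 at -0.94 (SE 0.08, edgeR adjusted p = 3.04e-08). The modified copy of Trim28 was at -1.06 on CAST and -1.06 on 129, and its unmodified copies differed by -0.01 (129, interval -0.25 to 0.23) and 0.16 (CAST, interval -0.26 to 0.58). Trim28 was thus lower in the same clone set as the zinc-finger genes, as were 132 panel genes in all. Its totals overlapped between the sets, with 6 of the 8 Chen2008-1 clones below the lowest Chen2008-25 clone. Trim28 ran from 50969 through a median of 66276 to 88504 CPM in the Chen2008-1 clones, the highest being the shallowest clone D10. In the Chen2008-25 clones the values were 77633, 89805 and 110850 CPM. The part of Trim28 in the levels of the zinc-finger genes was not tested.

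By Pearson's r over the 14 clones, the panel genes whose 129 share was most like that of the 9 summed were Lrrc45 (0.81), Trim28 (0.81), Depdc7 (0.79), Zbtb45 (0.78) and Fgr (0.77), among 416 genes. Those whose log2 total was most like it were Utp6 (0.94), Rhot1 (0.93), Phka1 (0.92), Fbxw11 (0.92) and Camsap2 (0.90), among 439 genes. Of these 10 genes Trim28 and Zbtb45 are on chromosome 7. The points share their library, depth and clone set, and in level the 14 clones fall into 2 sets that do not overlap, so that r for levels describes that step and not a relation within a set. In share, D10 (37.7%, 379 reads) lay apart from the other clones (45.1 to 52.6%). The r for shares can depend on that clone and was not computed without it. Trim28 itself had an r of 0.46 in level, and Ube2m, which was higher in the Chen2008-1 clones, had -0.82.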

How the data were processed

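The deposited tables hold whole-number read counts per gene, not normalized, in a 129 and a CAST column for each clone, per the file headers. Build mm9 is given in the submitters' processing notes. The aligner, allele assignment, counter and strand setting are among the details not given in the sources used here. A further deposited table gives each clone's genotype as text. On the sign order, B3gnt7 was at 247 CPM on the 129 copy and 706 CPM on the CAST copy of E6, against 243 ± 36.8 and 205 ± 43.7 CPM (SD, n = 5) in the KO clones of the same enhancer.

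CPM values, log2 ratios and p-values were computed here (edgeR 4.0.16, and for alternatives DESeq2 1.42.0 and limma 3.58.1, under R 4.3.3). Genes averaging 10 or more allelic reads a clone in the counts tested were kept, and 1 gene row identical to another was left out. The within-clone effect was tested with edgeR's quasi-likelihood test on both allele columns of the 14 clones, with terms for clone, allele and modified chromosome, both columns sharing the TMM-scaled library size of the clone's total. Separate terms gave each direction of deletion and their difference. Copies and totals were compared between clone sets in further edgeR fits. P-values were adjusted by the Benjamini-Hochberg method over all genes tested, the threshold was 0.05, and intervals cover 95%. Intervals on shares are Wilson intervals on reads and cover counting error only. The scripts were tested on simulated data. Clones that share a genotype differed beyond sampling noise in all 26 pairs, with a chi-square over its degrees of freedom from 3.47 to 25.9.

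The members, gene lists and tests were chosen with earlier results of these data known. All 9 members are named. Other chromosome 7 panel genes are named beside a member they are compared with, and the 5 genes with the largest Pearson's r are named for likeness. The zinc-finger genes of chromosome 11 were named after their values were seen, and Cbx5 as a member of the TRIM28 list. Alternatives were DESeq2, limma with a pseudocount of 5 reads, other scaling factors, no filter, halved counts, other sets of clones and leaving out each clone.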

Additional observations from a re-analysis of the deposited data

Results flagged for a closer look

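Among 40 tests of single clones against the rest of their group (Dixon's criterion at 95%), 4 clones stood apart, and chance marks about 1 in 20 such groups. The total of Zfp329 was 216 CPM in the Chen2008-25 clone B4, where the other 5 clones of that set had 157 to 175 CPM. The total of Zfp446 was 803 CPM in the Chen2008-1 clone H7, where the other 7 had 956 to 1090 CPM. The 129 share of the reads summed over the 9 genes was 52.6% in E3 (1887 reads, Wilson 95% interval 50.4 to 54.9%) among the clones deleted on CAST, where the other 5 had 49.1 to 50.3%. That share was 45.1% in C4 (2526 reads, 43.2 to 47.1%) among the Chen2008-25 clones, where the other 5 had 47.8 to 49.3%.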

How the results depend on the processing

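The estimate of Zfp446 within clones kept its direction under all 23 alternatives, with log2 ratios from -0.39 to -0.32. The edgeR, DESeq2 or limma adjusted p ran from 0.00231 to 0.511. Homozygous controls only and leaving out E6 are the same fit and are counted as 2 alternatives here and in the counts below. Its call was lost with the clones deleted on 129 and the controls alone (-0.32, adjusted p = 0.511), a fit on fewer clones. That fit called 0 members and the one with deletions on CAST alone called 2. The pooled 129 share differed by 8.71 points between directions, 5.04 to 12.4 points with each clone left out and 1.72 points without Zfp446 and D10, an alternative chosen after seeing the data; the cause was not tested. With each clone left out, the members called ranged from 3 to 6 on the modified 129 copy and from 1 to 5 on the unmodified CAST copy, where the lowest counts came without D10 and D2 in that order. Depth limits the clones deleted on 129 most, since D10 held 379 reads in the 9 genes. No paired analysis was possible because replicate numbers were given in accession order and only name the clones.

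Of the values of single genes under alternatives that keep all clones or choose among sets, 427 kept direction and side of the threshold, 17 passed newly, 1 lost its call and 30 changed sign, all of them values that had not passed. For the total, Zfp128 was at -0.018 with DESeq2, -0.029 with library totals, -0.12 with upper-quartile factors and -0.059 with homozygous controls only. On its unmodified 129 copy Zfp128 was at -0.0043, -0.092 and -0.0013 with DESeq2, upper-quartile factors and homozygous controls, and on its unmodified CAST copy at -0.015, -0.088 and -0.047. Zfp446 was at -0.046 on the unmodified 129 copy with upper-quartile factors. The 129 over CAST ratio of Zfp551 was -0.036 with a TMM factor for each column, -0.017 with halved counts, -0.020 with homozygous controls and -0.035 with separate direction terms, and that of Zfp110 was 0.0026 with DESeq2, 0.014 with halved counts and 0.024 with separate terms. The difference between directions was -0.030 with DESeq2 and -0.41 with limma for Zscan18, -0.53, -0.033 and -0.12 with limma for Zfp606, Zfp329 and Zfp324, and -0.0092 with halved counts and -0.028 with homozygous controls for Zfp446. Within clones, Zfp551 was at -0.041 and Zfp128 at 0.016 with deletions on CAST alone, and Zfp606 at 0.17, Zfp329 at 0.13 and Zscan22 at 0.11 with deletions on 129 alone.

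With each clone left out, 938 values kept direction and side, 18 passed newly, 11 lost their call and 41 changed sign. Results that changed sign had these ranges. The 129 over CAST ratio was -0.027 to 0.033 for Zfp110 and -0.020 to 0.086 for Zfp551. The within-clone ratio was -0.32 to 0.0022 for Zfp128, -0.026 to 0.14 for Zfp551 and -0.11 to 0.0090 for Zscan22. The difference between directions was -0.50 to 0.048 for Zfp110, -0.23 to 0.53 for Zfp324, -0.31 to 0.72 for Zfp329, -0.028 to 0.23 for Zfp446, -1.31 to 0.67 for Zfp606 and -1.45 to 0.53 for Zscan18. Zfp128 ranged from -0.083 to 0.14 on the unmodified 129 copy, -0.86 to 0.25 on the unmodified CAST copy, -0.0059 to 0.33 on the modified CAST copy and -0.094 to 0.071 in total. The unmodified copies ranged from -0.20 to 0.0016 for Zfp446 (CAST) and -0.13 to 0.065 for Zscan22 (129).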
